A study of Mus musculus with 13 samples.

Results

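Insulin and the insulin-like growth factors (IGFs) act through a shared set of signalling proteins, and 10 genes of that set were followed here in epididymal fat and in prostate tumours of the same mouse model. The genes, chosen by name, were the receptors Insr, Igf1r and Igf2r, the ligand Igf1, the adaptors Irs1, Irs2 and Grb10, the kinase genes Pik3r1 and Akt2, and the transcription factor gene Foxo1. All 10 were found by symbol in both tables, out of 23360 entries for fat and 24421 for tumours. A further 74 genes of the same pathway, each with a row in both tables, were read as context.

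All animals were C57BL/6 mice of 30 to 35 weeks on a regular diet, and all carried TRAMP, a transgene that drives viral oncoproteins from the probasin promoter in prostate epithelium. Animals labelled wild type were TRAMP+;p62f/f, so they carried the floxed p62 (Sqstm1) allele without recombination. Those labelled knockout were TRAMP+;p62aP2KO, in which p62 was to be lost in adipocytes under the aP2 (Fabp4) promoter, known to be active in some macrophages and endothelial cells as well. Fat was represented by 3 wild-type and 3 knockout libraries and tumours by 4 wild-type and 3 knockout libraries, 13 in all. Whether every library stems from a separate mouse is not given, so the p-values describe the spread between libraries, which may be partly technical.

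Sqstm1 was used to check the labels, and the libraries numbered 2 went against them in both tissues. In tumours this check is indirect, since a loss limited to adipocytes would leave Sqstm1 of the prostate epithelium in place. Why Sqstm1 was low in knockout tumours 1 and 3 was not tested. Wild-type fat 1 to 3 had 73.6, 1.77 and 84.3 FPKM of Sqstm1 (reads scaled by gene length and depth), and knockout fat 1 to 3 had 4.53, 54.5 and 2.58 FPKM. Wild-type tumours 1 to 4 had 173, 5.65, 167 and 151 CPM (counts scaled by library size and TMM), and knockout tumours 1 to 3 had 8.97, 176 and 19.5 CPM. Wild type and knockout therefore mean libraries so labelled, directions follow the labels as deposited, and many differences are given again without these libraries. Whether the labels of the libraries numbered 2 were exchanged was not tested; if they were, the genotype differences from all libraries would mix both genotypes in each group. Adipocyte markers, among them Adipoq and Plin1, were present in fat, where 10 marker genes summed to 9245 to 17488 FPKM. The 8 prostate luminal markers, among them Krt8 and Krt18, summed to 3001 to 15438 CPM in tumours. Markers of epididymis and seminal vesicle summed to 46886 CPM in knockout tumour 1, 3294 CPM in wild type 1 and 2995 CPM in wild type 4. In the remaining tumours that sum was 7.75 to 196 CPM. Whether such tissue was part of these libraries was not tested. Tumour libraries held 17810397 to 32475051 counts; the fat table gives no counts, and the steps between its low values show that a read was worth least in knockout 2, at 0.349 times its value in wild type 1, and most in knockout 3, at 1.15 times.

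When insulin binds INSR, or IGF1 binds IGF1R, the receptor kinase phosphorylates the adaptors IRS1 and IRS2, which recruit the lipid kinase PI3K through its regulatory subunit p85-alpha, the product of Pik3r1. The lipid made by PI3K activates AKT kinases, and AKT2 is the form tied most closely to insulin-stimulated glucose uptake in fat. AKT keeps FOXO1 out of the nucleus, and FOXO1 in turn is known to raise transcription of Insr and Irs2 when insulin is low. GRB10 is an inhibitory adaptor of both receptors, and IGF2R clears IGF2 and carries lysosomal enzymes without signalling through IRS proteins.

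By the GENCODE M21 annotation of mm10 all 10 are protein-coding genes. The receptor genes lie at chr8:3122061-3279617 (Insr, minus strand), chr7:67952827-68233668 (Igf1r, plus strand) and chr17:12682406-12769664 (Igf2r, minus strand), and the ligand gene Igf1 at chr10:87858265-87937042 (plus strand). The adaptor genes lie at chr1:82233101-82291416 (Irs1), chr8:10984681-11008458 (Irs2) and chr11:11930508-12038683 (Grb10), all on the minus strand. Pik3r1 lies at chr13:101680563-101768217 (minus strand), Akt2 at chr7:27591552-27640826 (plus strand) and Foxo1 at chr3:52268336-52353221 (plus strand). The spans of Igf1r, Grb10 and Akt2 overlap no other annotated gene. Those of the other 7 members overlap other genes, among them the antisense genes Airn (Igf2r) and Igf1os (Igf1). Where exons overlap on opposite strands, reads of the pair cannot be told apart unless counting used strand, which no source states. Pik3r1 and Foxo1 also overlap genes on their own strand, Gm36638 and Gm38034. Counting by strand would not separate reads of such a pair where exons overlap.

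The sequence before the start of each gene is shown for the member with the largest difference in fat, Akt2, and for 3 members that were highest in the same fat library, Foxo1, Igf1r and Irs2. The promoter table held 14 starts of 9 members, with none for Insr. Each line gives 250 bases before a RefSeq start, 5′ to 3′ on the strand of the gene (RefSeq, GRCm38.p6, the assembly of mm10), with capitals marking the GC box GGGCGG or its reverse complement CCGCCC, a motif of SP1-type factors. Akt2 has 4 listed starts, and the most upstream is shown.
Akt2 (chr7:27591302-27591551, plus strand): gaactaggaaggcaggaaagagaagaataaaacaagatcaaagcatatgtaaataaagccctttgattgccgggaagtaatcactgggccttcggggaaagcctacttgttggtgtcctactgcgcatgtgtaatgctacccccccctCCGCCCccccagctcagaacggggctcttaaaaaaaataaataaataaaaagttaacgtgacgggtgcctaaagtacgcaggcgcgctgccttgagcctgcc
Foxo1 (chr3:52268087-52268336, plus strand): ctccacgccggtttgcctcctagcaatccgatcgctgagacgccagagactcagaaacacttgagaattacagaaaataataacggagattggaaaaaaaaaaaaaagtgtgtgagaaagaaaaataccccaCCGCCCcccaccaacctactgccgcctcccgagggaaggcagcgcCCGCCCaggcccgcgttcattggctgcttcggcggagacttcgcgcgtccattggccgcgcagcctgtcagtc
Igf1r (chr7:67952007-67952256, plus strand): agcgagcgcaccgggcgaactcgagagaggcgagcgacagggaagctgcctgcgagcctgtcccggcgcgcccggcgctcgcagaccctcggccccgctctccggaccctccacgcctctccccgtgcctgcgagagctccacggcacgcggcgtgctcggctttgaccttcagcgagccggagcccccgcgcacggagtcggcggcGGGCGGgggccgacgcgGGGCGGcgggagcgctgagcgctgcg
Irs2 (chr8:11008930-11009179, minus strand): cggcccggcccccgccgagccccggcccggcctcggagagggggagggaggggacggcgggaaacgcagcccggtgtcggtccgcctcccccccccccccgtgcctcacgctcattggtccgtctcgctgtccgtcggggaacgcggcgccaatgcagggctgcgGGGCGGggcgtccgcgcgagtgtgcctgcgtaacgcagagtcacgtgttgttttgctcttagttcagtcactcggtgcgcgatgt
The GC box was found in 8 of the 14 member windows and in 32.7% of all 32851 windows of this length. By gene, 8 of the 9 members listed had it in at least 1 window, against 35.4% of 27025 genes. Igf1, the ligand, had none in its single window. The FOXO core GTAAACA or its reverse complement TGTTTAC was in 0 of the 14 member windows and in 3.17% of all windows, so these letters did not occur in these stretches of 250 bases. G and C made up 77.6% of the Igf1r window and 72.8% of the Irs2 window, against 56.0% for Foxo1, 48.8% for Akt2 and a median of 52.4% over all windows.

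In epididymal fat, Akt2 was the member that differed most between genotypes, and 0 of the 10 members passed the test over all genes. The test was limma on log2(FPKM + 1) with adjustment over 13617 genes, of which 0.00734% were called. Akt2 had 62.9, 54.2 and 65.0 FPKM in wild type 1 to 3 and 31.0, 26.3 and 24.8 FPKM in knockout 1 to 3. Every knockout library lay below every wild-type library, including both libraries numbered 2, in which Sqstm1 had gone against the label. Akt2 thus followed the label there and not the measured Sqstm1. Were the labels of these libraries exchanged, the Akt2 groups would overlap, with 26.3 FPKM in wild type and 54.2 FPKM in knockout. Means were 60.7 ± 5.70 FPKM in wild type and 27.4 ± 3.24 FPKM in knockout (SD, n = 3 each). After log2(FPKM + 1), a scale that shrinks differences of weakly expressed genes, the difference was -1.12 (SE 0.21, 95% interval -1.62 to -0.63, limma adjusted p = 0.161). It was -1.18 (adjusted p = 0.243) without the libraries numbered 2 and between -1.21 and -1.06 when any single library was left out. Akt2 was the 1 member of 10 whose groups lay apart; this held for 21.2% of all genes tested, 9.87% higher and 11.3% lower. Akt2 ranked 77th of 13617 by p. Less RNA per adipocyte and fewer adipocytes cannot be told apart in bulk tissue; the summed adipocyte markers were 15116 to 17488 FPKM in wild type and 9245 to 17218 FPKM in knockout. In knockout 3, where Akt2 was lowest, that sum was 17218 FPKM, within the wild-type range. In knockout 2, where Akt2 was 26.3 FPKM, it was 9245 FPKM, the lowest of all fat libraries.

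Akt1, the most widely expressed AKT form, showed no such separation. It had 22.4, 21.9 and 27.05 FPKM in wild type and 26.9, 30.2 and 25.1 FPKM in knockout (log2 difference 0.20, adjusted p = 0.671 by limma). The ratio of Akt2 to Akt1 FPKM, chosen after the values were seen, does not depend on the scaling between libraries. It lay between 2.40 and 2.81 in the wild-type fat libraries and between 0.871 and 1.15 in the knockout ones, with no overlap.

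**Figure D1:**
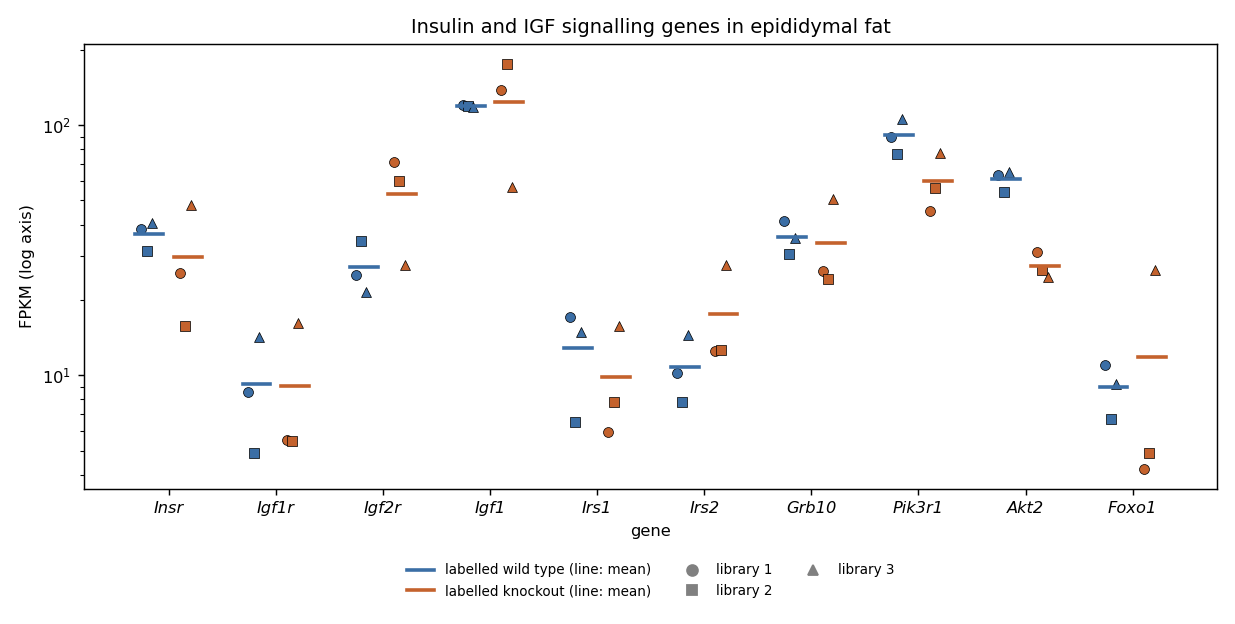
FPKM on a log axis of the 10 genes in the 3 wild-type and 3 knockout fat libraries, 1 point per library and a line at each group mean. Only Akt2 has groups that do not overlap, and the triangle of knockout 3 is the highest point for 5 genes.

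Pik3r1, the p85-alpha subunit of PI3K, leaned the same way as Akt2 but with overlap. It had 89.8, 76.8 and 106 FPKM in wild type and 45.5, 55.9 and 77.3 FPKM in knockout, so that knockout 3 reached just above wild type 2. The log2 difference was -0.62 (SE 0.28, 95% interval -1.27 to 0.02, limma adjusted p = 0.345), and -0.71 without the libraries numbered 2.

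Among the receptors, Igf2r had the largest difference in fat, towards higher values in knockout. It had 25.2, 34.4 and 21.4 FPKM in wild type and 71.3, 59.7 and 27.5 FPKM in knockout; knockout 1 and 2 lay above all wild-type libraries, and knockout 3 lay below wild type 2. The log2 difference was 0.86 (SE 0.38, 95% interval -0.04 to 1.76, limma adjusted p = 0.346), with 0.90 without the libraries numbered 2. Summed macrophage markers (9 of 10 listed genes had a row) were 985 to 3630 in wild type and 3095 to 7684 FPKM in knockout. The sum and Igf2r put all fat libraries in the same order, from knockout 1 and 2 through wild type 2, knockout 3 and wild type 1 to wild type 3. The part of macrophages in the Igf2r values was not tested.

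The signalling receptors Insr and Igf1r did not separate by genotype. Insr had 38.3, 31.3 and 40.8 FPKM in wild type and 25.7, 15.7 and 47.7 FPKM in knockout, a log2 difference of -0.43 (95% interval -1.34 to 0.48, limma adjusted p = 0.624). That of Insr was -0.058 without knockout 2, -0.83 without knockout 3 and -0.17 without both libraries numbered 2. Igf1r had 8.60, 4.89 and 14.2 FPKM in wild type and 5.52, 5.45 and 16.2 FPKM in knockout, a log2 difference of -0.08 (adjusted p = 0.953), and -0.19 without the libraries numbered 2. Knockout 3 was the highest library for both genes, while the lowest was knockout 2 for Insr and wild type 2 for Igf1r.

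Igf1 was nearly constant in wild-type fat and scattered in knockout fat. It had 121, 119 and 118 FPKM in wild type (119 ± 1.52, SD, n = 3) and 138, 175 and 56.7 FPKM in knockout (123 ± 60.6, SD, n = 3). The knockout values lay on both sides of the wild-type values, and the log2 difference was -0.10 (adjusted p = 0.933 by limma), and -0.43 without the libraries numbered 2.

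The adaptors overlapped between genotypes as well. Irs1 had 17.1, 6.48 and 14.9 FPKM in wild type and 5.95, 7.80 and 15.7 FPKM in knockout (log2 difference -0.36, limma adjusted p = 0.725, and -0.66 without the libraries numbered 2). Irs2 had 10.2, 7.83 and 14.4 FPKM in wild type and 12.5, 12.6 and 27.6 FPKM in knockout (0.60, adjusted p = 0.470, and 0.58 without the libraries numbered 2). Within a library Irs1 stood at 0.828 to 1.67 times Irs2 in wild type and at 0.474 to 0.618 times Irs2 in knockout, 2 ranges that did not overlap; this ratio was also chosen after the values were seen. Grb10 had 41.5, 30.5 and 35.4 FPKM in wild type and 26.2, 24.3 and 50.6 FPKM in knockout (-0.15, adjusted p = 0.852, and -0.07 without those libraries).

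Foxo1 varied most among the members in fat, by 6.22 times from the lowest library to the highest. It had 10.98, 6.71 and 9.22 FPKM in wild type and 4.24, 4.88 and 26.3 FPKM in knockout (log2 difference -0.05, limma adjusted p = 0.978, and 0.11 without the libraries numbered 2). Knockout 1 and 2 lay below all wild-type libraries and knockout 3 far above them. That library was the highest of the 6 for Foxo1, Insr, Igf1r, Irs2 and Grb10 and the lowest for Akt2 and Igf1.

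The outcome for several members therefore turned on knockout 3. Without it the log2 differences were -0.82 for Foxo1, -0.83 for Insr, -0.82 for Pik3r1, 1.27 for Igf2r and -1.06 for Akt2, and 5 of 10 members were at an unadjusted p under 0.05 instead of 1, while the share of all genes there was 21.2% instead of 15.0%. None passed the limma test over all genes there either, with a smallest adjusted p of 0.110. With all libraries, 1 of 10 members was at an unadjusted p under 0.05, against 15.0% of all genes; it was Akt2, on the lower side, where 8.14% of all genes lay. In knockout 3 the summed markers of dividing cells, such as Mki67, stood at 12.5 FPKM, against 115 and 141 FPKM in knockout 1 and 2 and 9.71 to 35.8 FPKM in wild type; the part of these cells in the differences was not tested.

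In prostate tumours, 0 of the 10 members passed edgeR's quasi-likelihood test over 15117 genes, of which 0% were called, and 0 were at an unadjusted p under 0.05, against 12.4% of all genes. Of all genes, DESeq2 called 780 and voom 0; neither called a member. The groups overlapped for every member, whereas 6.69% of all genes lay apart with higher and 7.05% with lower values in knockout. In tumours 7 of the log2 differences were above 0 (43.2% of all genes were) and 3 below, with a median of 0.20 against -0.07 over all genes tested; in fat 2 were above 0 (50.5% of all genes were) and 8 below, with a median of -0.13 against 0.01.

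Akt2 had 54.7, 69.9, 22.7 and 66.4 CPM in wild-type tumours 1 to 4 and 61.7, 77.2 and 66.2 CPM in knockout tumours 1 to 3. Apart from the low value of wild type 3 the libraries lay close together, and the log2 difference was 0.36 (SE 0.36, 95% interval -0.48 to 1.19, edgeR adjusted p = 0.734), or 0.11 without wild type 3. Akt2 stood at 0.151 to 0.215 times Akt1 per length in all 7 tumours. The highest ratio in tumours was thus below the lowest in fat, although the tables were made separately and the fat values rest on the authors' gene lengths.

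**Figure D2:**
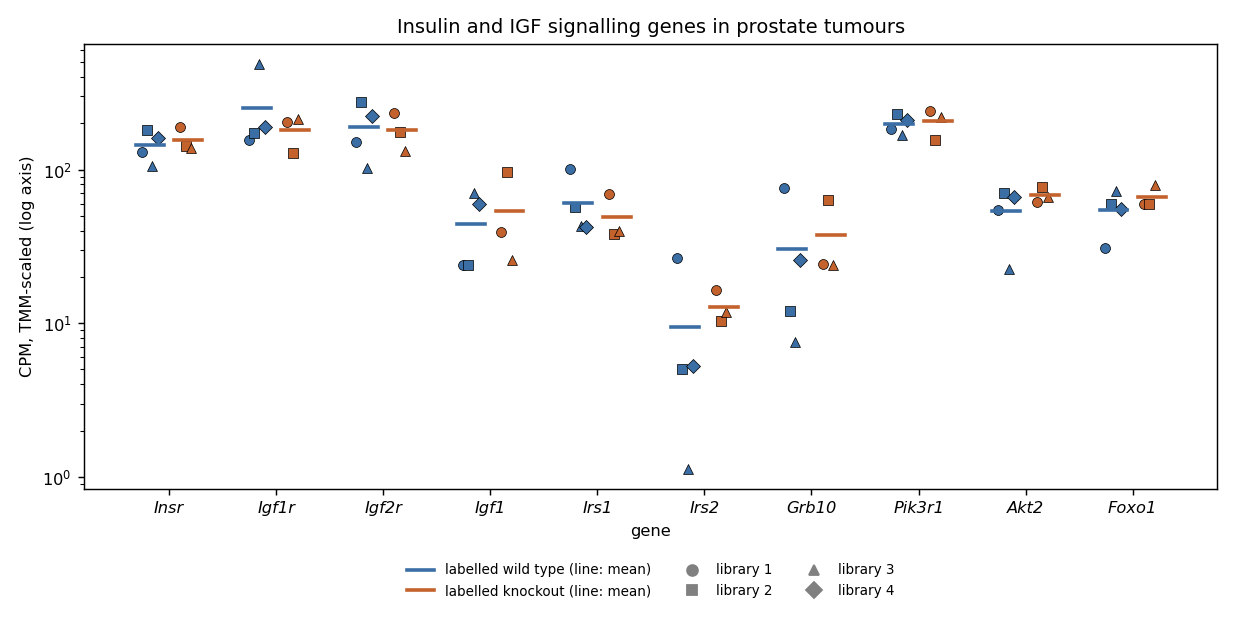
CPM on a log axis of the 10 genes in the 4 wild-type and 3 knockout tumour libraries, 1 point per library and a line at each group mean. The groups overlap for every gene. Wild type 3 stands above the rest for Igf1r and below the rest for Insr, Igf2r, Irs2, Grb10 and Akt2.

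Igf1r, the receptor through which IGF1 supports growth, was set apart by 1 wild-type tumour. It had 157, 172, 485 and 188 CPM in wild type and 204, 128 and 213 CPM in knockout. Wild type 3 was more than 2 times as high as any other tumour, and the other 3 wild-type tumours lay within the knockout range. The log2 difference was -0.46 (SE 0.45, 95% interval -1.49 to 0.57, edgeR adjusted p = 0.715), and 0.08 without wild type 3. Prostate luminal markers summed to 15438 CPM in that tumour and to 3001 to 8448 CPM in the other 6, and the part of luminal cells in the Igf1r value was not tested.

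Irs2 spanned the widest range of the members in tumours, 23.5 times from the lowest library to the highest. It had 26.6, 5.02, 1.13 and 5.31 CPM in wild type, from 499, 120, 16 and 111 counts, and 16.4, 10.3 and 11.8 CPM in knockout. Wild type 1 lay above and the other 3 wild-type tumours below all knockout tumours. The log2 difference was 0.43 (SE 0.88, 95% interval -1.61 to 2.47, edgeR adjusted p = 0.877), 1.74 (adjusted p = 0.330) without wild type 1 and 0.060 without wild type 3. Wild type 1 was also the highest tumour for Irs1, with 101 CPM against 38.1 to 69.5 CPM in the other 6, and for Grb10, with 75.7 CPM against 7.503 to 63.7 CPM. Its 8 neuroendocrine markers, such as Chga and Syp, summed to 1297 CPM against 49.1 to 76.9 CPM in the other 6 tumours; their part in the adaptor values was not tested.

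Irs1 had a log2 difference of -0.31 (edgeR adjusted p = 0.782) and Grb10 one of 0.30 (adjusted p = 0.901). Grb10 counted 12.0, 7.503 and 25.6 CPM in wild type 2 to 4 and 24.3, 63.7 and 23.8 CPM in knockout 1 to 3, and the difference was -0.59 without the libraries numbered 2. Per length, Irs1 exceeded Irs2 in 7 of 7 tumours, by 2.34 to 26.1 times, whereas in fat it did so in 2 of 6 libraries.

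The remaining members overlapped broadly in tumours. Insr had 131, 180, 105 and 161 CPM in wild type and 189, 143 and 137 CPM in knockout (log2 difference 0.12, 95% interval -0.45 to 0.69, edgeR adjusted p = 0.877). Pik3r1 had 184, 229, 167 and 209 CPM against 242, 155 and 220 CPM (0.06, 95% interval -0.47 to 0.59, adjusted p = 0.939), the narrowest spread of the members. Foxo1 had 30.6, 60.0, 72.7 and 55.6 CPM against 59.3, 59.9 and 79.1 CPM (0.27, adjusted p = 0.750).

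Igf2r had 150, 275, 103 and 223 CPM in wild-type tumours and 233, 177 and 133 CPM in knockout tumours (-0.06, edgeR adjusted p = 0.967). Igf1 had 24.0, 23.7, 70.4 and 59.5 CPM in wild type and 39.2, 96.0 and 25.6 CPM in knockout (0.27, adjusted p = 0.876), and its difference was -0.66 without the libraries numbered 2. Knockout 2, the highest for Igf1, also held the highest macrophage marker sum, 2694 CPM against 298 to 809 CPM in the other 6 tumours, and whether the values are linked was not tested.

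Levels of different genes were ordered per length within each tissue. In fat, Igf1 led with 121 ± 38.4 FPKM over the 6 libraries (SD), followed by Pik3r1 at 75.2 ± 22.04 and Akt2 at 44.0 ± 18.7 FPKM. Igf2r (39.9), Grb10 (34.8) and Insr (33.2 FPKM) came next, and Irs2 (14.2), Irs1 (11.3), Foxo1 (10.4) and Igf1r (9.13 FPKM) were lowest. The order pools both genotypes: by group means Akt2 stood above Igf2r, Grb10 and Insr in wild type (60.7 against 27.0, 35.8 and 36.8 FPKM) and below them in knockout (27.4 against 52.8, 33.7 and 29.7 FPKM). Every neighbouring pair in the pooled order had overlapping ranges over libraries; Pik3r1 nevertheless exceeded Akt2, and Insr exceeded Irs2, in 6 of 6 libraries. In tumours, CPM per kilobase of GENCODE M21 exon length (RPKM) put Pik3r1 (19.9 ± 3.25 RPKM, SD, n = 7) and Igf2r (19.9 ± 6.59 RPKM) first, followed by Igf1r (13.2), Insr (10.9), Akt2 (8.39), Foxo1 (6.88), Irs1 (6.10), Igf1 (4.88), Grb10 (3.66) and Irs2 (1.73 RPKM). Ranges of neighbours overlapped here as well, while Grb10 exceeded Irs2 in 7 of 7 tumours. Insr stood at 2.88 to 6.39 times Igf1r in fat, above it in 6 of 6 libraries, and at 0.265 to 1.36 times Igf1r in tumours, above it in 5 of 7.

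The genotype effects of fat and tumour were then compared directly, with all 13 libraries in 1 limma fit of 12390 genes, of which 0% were called and 11.7% were at an unadjusted p under 0.05. Of the members 0 of 10 passed and 1 was at an unadjusted p under 0.05, with a higher effect in tumours, as for 5.92% of all genes (5.79% had a lower one). For Akt2 the tumour effect exceeded the fat effect by 1.59 on the log2 scale (SE 0.46, 95% interval 0.59 to 2.59, limma adjusted p = 0.159). This difference was 1.72 (limma adjusted p = 0.482) without the 4 libraries numbered 2. It lay between 1.23 and 1.75 when any single library was left out. Pik3r1 had a difference of 0.67 (95% interval -0.09 to 1.42, adjusted p = 0.495) and Igf2r one of -0.86 (95% interval -2.05 to 0.34, adjusted p = 0.596). The other 7 members had intervals that included 0.

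**Figure D3:**
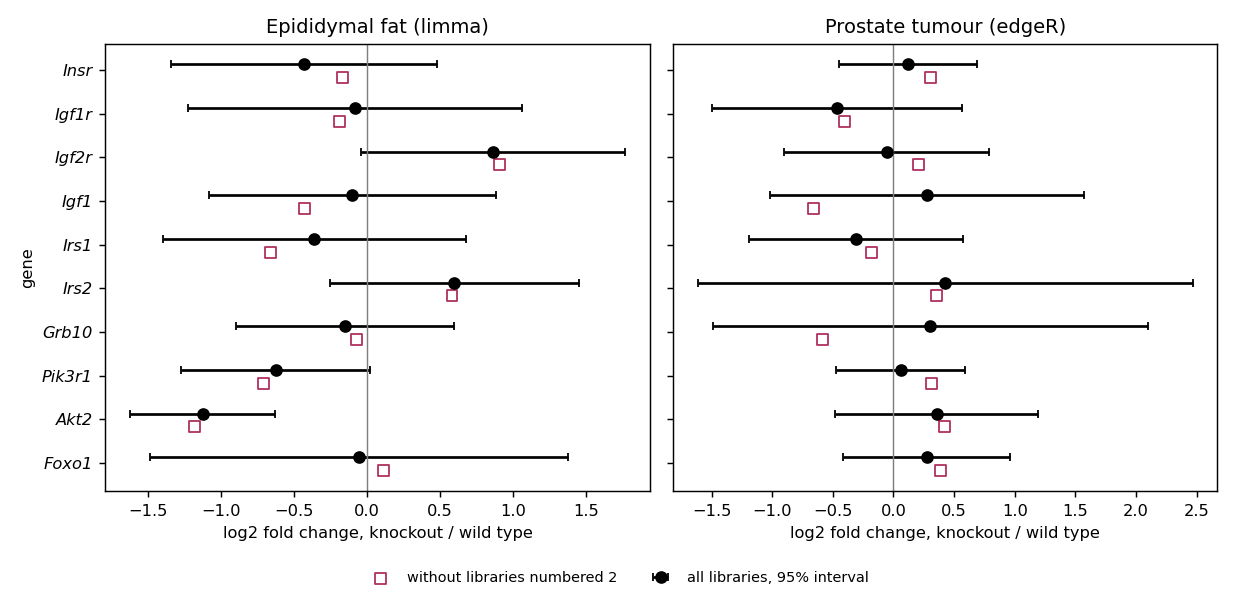
Log2 fold change of each gene, knockout over wild type, in fat (left) and tumours (right), with 95% intervals from all libraries as black bars and the value without the libraries numbered 2 as open squares. The interval of Akt2 in fat, -1.62 to -0.63, is the only one of the 20 that does not include 0; the values are not adjusted over genes.

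Of the other 74 pathway genes, 65 were tested in fat and 71 in tumours, and 0 passed in either tissue. At an unadjusted p under 0.05 there were 12 in fat (18.5%, against 15.0% of all genes), 5 higher and 7 lower in knockout (6.88% and 8.14% of all genes), and 10 in tumours (14.1%, against 12.4%), 10 higher and 0 lower (6.17% and 6.26% of all genes). The median log2 difference was 0.05 in fat and 0.14 in tumours, against 0.01 and -0.07 over all genes.

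The genes of insulin, a hormone of the pancreas, were at or near 0. Ins1 was listed at 0 in all 13 libraries, and Ins2 was listed at 0 in fat and had 1 count in 1 tumour and 0 in the other 6, where 3 counts, the limit that a count of 0 allows, come to 0.0871 to 0.212 CPM. Igf2, the fetal growth factor, was low in both tissues, at 0.456 to 2.84 FPKM in fat (log2 difference -0.27, limma adjusted p = 0.808) and 0.637 to 2.82 CPM in tumours (0.46, edgeR adjusted p = 0.779).

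In fat the smallest p among pathway genes lower in knockout belonged to Grb14, an inhibitory adaptor of the insulin receptor related to Grb10. It had 5.21, 8.23 and 6.26 FPKM in wild type and 0.703, 2.48 and 0.598 FPKM in knockout (log2 difference -1.82, limma adjusted p = 0.172). Igfals, the acid-labile subunit that holds IGFs in circulating complexes, had 35.4, 28.3 and 20.1 FPKM against 1.11, 10.8 and 2.10 FPKM (-2.73, adjusted p = 0.172). For both genes the groups lay apart.

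Slc2a4, the insulin-regulated glucose transporter GLUT4, had 46.7, 39.0 and 52.0 FPKM in wild-type fat and 13.9, 14.3 and 33.0 FPKM in knockout fat (-1.24, limma adjusted p = 0.219), without overlap. In tumours it had a difference of -0.28 (edgeR adjusted p = 0.722), and the effects of fat and tumour differed by 0.97 (limma adjusted p = 0.384). Adipocyte markers in fat summed to 13285, 9245 and 17218 FPKM in knockout 1 to 3, and to 15116 to 17488 FPKM in wild type. The part of adipocytes in the Slc2a4 values was not tested.

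Bcl6, a transcriptional repressor that FOXO factors are known to induce, pointed in opposite directions. It had 23.6, 19.7 and 22.9 FPKM in wild-type fat and 9.01, 12.9 and 10.7 FPKM in knockout fat (-0.97, limma adjusted p = 0.172). In tumours it had 29.5, 27.0, 36.9 and 24.7 CPM in wild type and 62.1, 32.1 and 67.4 CPM in knockout (0.87, edgeR adjusted p = 0.297). The tumour effect exceeded the fat effect by 1.76 (SE 0.38, 95% interval 0.93 to 2.58), with a limma adjusted p = 0.0781 that did not pass. Without knockout tumour 2 the difference was 2.09 and passed (adjusted p = 0.0343).

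On the higher side in fat, the pathway genes with the smallest p were Inpp5d, Pdk4 and Foxo3. Inpp5d, the lipid phosphatase SHIP1 of blood cells, had 11.2, 17.9 and 5.98 FPKM in wild-type fat and 40.7, 29.5 and 33.9 FPKM in knockout fat (1.60, limma adjusted p = 0.186). In tumours it had 3.47 to 10.2 CPM in wild type and 13.4 to 46.4 CPM in knockout (1.91, edgeR adjusted p = 0.210). Macrophage markers summed to 298 to 324 CPM in wild-type tumours and 473 to 2694 CPM in knockout tumours. Among knockout tumours both had the same order, but wild-type tumour 4 had the highest wild-type Inpp5d and the lowest marker sum. In fat, wild type 2 had a higher sum than knockout 3 (3630 against 3095 FPKM) but less Inpp5d. The part of macrophages in the Inpp5d values was not tested. Pdk4, which restrains pyruvate oxidation and is induced by FOXO factors, had 7.62, 19.1 and 7.39 FPKM in wild-type fat and 91.1, 28.7 and 232 FPKM in knockout fat (2.92, limma adjusted p = 0.195). Its tumour difference was 1.96 (edgeR adjusted p = 0.294). Foxo3, a relative of Foxo1, had 15.7 to 20.3 FPKM in wild-type fat and 24.4 to 40.9 FPKM in knockout fat (0.75, limma adjusted p = 0.257).

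In tumours Igfbp4, a binding protein that withholds IGFs from their receptors, was flat in wild type and higher in every knockout tumour. It had 51.2, 52.0, 50.5 and 50.7 CPM in wild type and 148, 424 and 91.4 CPM in knockout (2.11, SE 0.47, edgeR adjusted p = 0.195). Socs3, which is induced by cytokines and dampens insulin receptor signalling, had 2.76 to 7.79 CPM in wild type and 12.95, 62.6 and 23.0 CPM in knockout (2.51, SE 0.59, adjusted p = 0.195). DESeq2 called Igfbp4, Socs3 and Inpp5d (adjusted p = 0.00196, 0.00198 and 0.0113), among 780 genes in all. Fibroblast markers summed to 878 to 1928 CPM in wild type and 1851 to 10587 CPM in knockout. Endothelial markers summed to 58.0 to 153 CPM and 166 to 319 CPM. Dividing-cell markers went the other way, with 812 to 2478 CPM in wild type and 67.8 to 292 CPM in knockout. The part of these cells was not tested.

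On the lower side in tumours, Foxo6 had 11.3 CPM in wild type 1 and 0.425 to 1.48 CPM in the other 6 tumours (-1.97, edgeR adjusted p = 0.522). Tbc1d4, the AKT substrate AS160 that gates GLUT4 traffic, had 41.4 to 47.5 CPM in wild type and 33.2 to 39.5 CPM in knockout, without overlap (-0.31, adjusted p = 0.542). Gsk3b, a kinase that AKT inhibits, had 191, 192, 190 and 151 CPM against 174, 126 and 123 CPM (-0.36, adjusted p = 0.546). Akt1 had a tumour difference of 0.29 (adjusted p = 0.741).

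**Figure D4:**
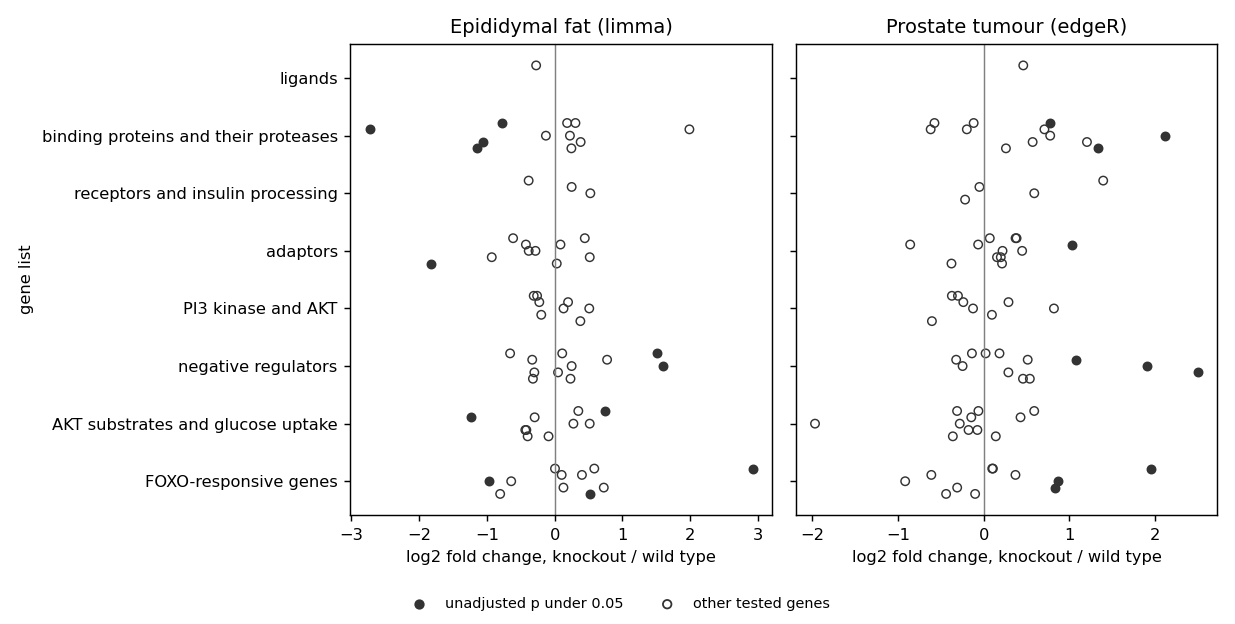
Log2 fold change, knockout over wild type, of the other pathway genes tested in fat (left, 65 genes) and tumours (right, 71 genes), 1 circle per gene by list, filled where the unadjusted p was under 0.05. The 10 filled circles in tumours are all to the right of 0, and those in fat are on both sides, 5 higher and 7 lower.

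Without the libraries numbered 2, a setting chosen after seeing the data, the fat differences were -2.03 for Grb14, -3.44 for Igfals, -1.16 for Slc2a4, -1.16 for Bcl6, 2.05 for Inpp5d, 4.10 for Pdk4 and 0.66 for Foxo3. The tumour differences were 1.24 for Igfbp4, 1.63 for Socs3, 1.45 for Inpp5d, 2.03 for Pdk4, 1.10 for Bcl6, -2.63 for Foxo6, -0.38 for Tbc1d4 and -0.25 for Gsk3b. All 15 kept their sign and 0 passed the test, with limma adjusted p of at least 0.118 in fat and edgeR adjusted p of at least 0.512 in tumours. Most of these genes were named for a small p with all libraries, and this setting refits part of the same libraries. The kept signs are therefore no separate test. The difference between tissues for Bcl6 was 2.25 (limma adjusted p = 0.168).

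By list, the binding proteins and their proteases had 4 genes lower and 0 higher at an unadjusted p under 0.05 in fat, of 11 tested, and 3 higher and 0 lower in tumours, of 12 tested. Negative regulators had 2 higher in fat, of 11, and 3 higher in tumours, of 12. The PI3 kinase and AKT list, which holds the catalytic subunits, had 0 of 8 in either tissue. FOXO-responsive genes had 2 higher and 1 lower in fat and 3 higher in tumours, each of 11. Over all genes the shares were 6.88% higher and 8.14% lower in fat, and 6.17% higher and 6.26% lower in tumours.

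The genes whose pattern was most like that of Akt2, by the smaller of the Pearson correlations over the 6 fat and over the 7 tumour libraries, were Stard13 (0.99 in fat, 0.94 in tumours), Slc9a8 (0.94, 0.93) and Sacm1l (0.94, 0.92), out of 12389 compared. For Igf1r, the member with the largest difference in tumours, they were Sft2d3 (0.98, 0.99), Zfp462 (1.00, 0.93) and Pbrm1 (0.92, 0.94). These are descriptions over few libraries, which share their groups, and high values are common among so many genes. Igf1r had 485 CPM in wild-type tumour 3 against 128 to 213 CPM in the other tumours. Its correlations in tumours may therefore rest largely on that library, which was not tested.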

How the data were processed

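RNA was polyadenylated, made into libraries with a directional kit and read as single reads of 75 bases on a NextSeq 500, per the labels' protocols. STAR, DESeq2 and the build mm10 appear in the submitters' processing notes, without versions or roles; no source used here names the counter or the annotation. The authors deposited whole-number counts per gene for tumours. The adipose values name no unit and were read, from their size and steps, as FPKM deposited by the authors with further scaling between libraries. Their depth in reads is unknown, and neither table shows changes in total RNA.

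Fat was tested with limma 3.58.1 (trend) on log2(FPKM + 1) keeping genes whose mean FPKM was at least 1, and tumours with edgeR 4.0.16 (quasi-likelihood test, TMM scaling, low counts removed by filterByExpr at a minimum of 10) in R 4.3.3; DESeq2 1.42.0 and voom were alternatives. For edgeR, SE is the log2 fold change divided by the root of F. Tests are two-sided, adjusted by Benjamini-Hochberg over all genes, called under 0.05, and were tested on simulated data. All members are named; other pathway genes are named for the 3 smallest p per direction and tissue or from 7 fixed names, some with their values in the other tissue; a few named items are not reported here. Members and lists were chosen with earlier results of these data known.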

Additional observations from a re-analysis of the deposited data

Results flagged for a closer look

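Among the 4 wild-type tumours, single libraries stood far from the other 3 for 7 of 22 genes examined. Chance would give about 1 in 20 groups if the genes were independent and not chosen by their values, but they share the same 4 tumours, Sqstm1 was already known to go against its label, and some genes were named by their p, so no chance rate is given for this set. Igf1r was 485 CPM in wild type 3, above the rest. Irs2 and Foxo6 were 26.6 and 11.3 CPM in wild type 1, above the rest. Akt1 and Igf2 were 86.4 and 0.637 CPM in wild type 3, Gsk3b was 151 CPM in wild type 4 and Sqstm1 was 5.65 CPM in wild type 2, each below the rest.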

How the results depend on the processing

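None of the 10 members passed the adjusted threshold in fat, in tumours or in the comparison of their effects under any alternative run, with a smallest adjusted p of 0.0767 over 420 values, for Akt2 in the comparison of tissues; 40 of these values turned sign. Without both libraries numbered 2, the log2 difference turned to 0.11 for Foxo1 in fat, 0.21 for Igf2r, -0.66 for Igf1 and -0.59 for Grb10 in tumours, and -0.11 for Igf1 between tissues. For Igf2r in tumours it was 0.021 with voom and 0.12 with the replicate number as a block, and for Irs1 between tissues it was -0.040 with the replicate block. Leaving out 1 library moved the fat values of Foxo1 from -0.82 to 0.37, Igf1r from -0.55 to 0.25, Grb10 from -0.48 to 0.037 and Igf1 from -0.42 to 0.38. It moved the tumour values of Irs1 from -0.64 to 0.057, Igf2r from -0.28 to 0.19, Igf1r from -0.63 to 0.080, Grb10 from -0.32 to 1.31, Pik3r1 from -0.071 to 0.23, Insr from -0.037 to 0.24 and Igf1 from -0.45 to 0.62. Between tissues it moved Irs1 from -0.17 to 0.49, Igf1r from -0.58 to 0.22, Foxo1 from -0.050 to 1.14, Igf1 from -0.20 to 0.74 and Irs2 from -0.17 to 1.05. The causes were not tested. Pathway genes called were 0 to 1 in fat when 1 library was left out (Igfbp3 without knockout 2, adjusted p = 0.0474) and 3 in tumours with DESeq2, 0 otherwise.

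Over all genes, calls in fat went from 1 to between 2 and 4 without single libraries and 5 without both libraries numbered 2. In tumours they went from 0 to 780 with DESeq2, and between tissues from 0 to 221 without fat knockout 3, 34 without tumour knockout 2 and 17 with the replicate block. Members at an unadjusted p under 0.05 in fat were 3 with the replicate block, 2 with no filter and 5 without knockout 3, against 1; the shares of all genes were 16.3%, 11.8% and 21.2%, against 15.0%. Replicate numbers were not taken as pairs, because no label says that they pair samples. Deviations of same-numbered libraries correlated by -0.05, 0.15 and 0.15 in fat and 0.16, 0.08 and 0.32 in tumours. In tumours each of libraries 1 to 3 correlated best with its own number, and in fat not every library did. For wild-type tumour 2 the values were nearly equal, 0.082 with knockout 2 and 0.080 with knockout 1. With 3 or 4 libraries a group, differences of the size seen in most members could not be told from the spread between libraries.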
